A study of Arabidopsis thaliana with 13 samples.

Results

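SWEET4 (AT3G28007), SWEET11 (AT3G48740) and SAG29 (AT5G13170, also named SWEET15) are sugar transporter genes of Arabidopsis thaliana, and their course was followed through 72 h of vascular cell induction in cultured cotyledons. The 3 genes were chosen with earlier results of these data known, and their probe sets were those that the platform annotation assigns to them. Each gene had 1 probe set, so 3 of the 16548 genes with a probe set of their own are described, from a table of 38408 probe sets. All 3 passed the filter on dim probe sets, which used the mean over all arrays, and were among the 10982 genes tested.

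SWEET proteins are membrane proteins that let sugars move down their concentration gradient, unlike the proton-coupled carriers that pull sugar in against one. SWEET11 acts with its close relative SWEET12 in phloem parenchyma cells of the leaf, where it releases sucrose into the wall space before it is loaded into the sieve tubes. SAG29 was first described as a senescence-associated gene, and its protein carries sucrose, among other places, to the embryo. SWEET4 carries glucose and fructose and is active in the veins.

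Each of the 13 samples was a batch of cotyledons from 6-day-old Col-0 seedlings, grown in liquid MS medium in continuous light at 22 °C, and each was hybridised to 1 array. All cotyledons sampled from 6 h on had been cultured with bikinin at 10 µM, an inhibitor of GSK3-like kinases that switches on brassinosteroid signalling, with 2,4-D at 1.25 mg/L, a synthetic auxin, and with kinetin, a cytokinin, at 0.25 mg/L. The late window was 54 to 72 h, the middle window 30 to 48 h and the early window 6 to 24 h, with 4 arrays in each, and the 0 h sample was 1 array. No time point had a replicate, no culture without the 3 agents was among these samples, and the SD of a window holds change within it as well as array error.

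Levels are log2 values after each array was centred on its median, the log base being read from the range of the values. Before centring, the medians of the 8 arrays of 30 to 72 h lay between 5.82 and 5.99 and those of the 5 arrays of 0 to 24 h between 5.15 and 5.35, a step of 0.67 in their means. A comparison across that step mixes time with the set of arrays, and these cannot be told apart. Whole cotyledons were measured, so that fewer cells of a type and less RNA per cell cannot be told apart. The means of the measured marker genes moved in these samples as follows. The 6 mesophyll genes of 17 listed averaged 7.13 to 7.63 in the late arrays, 7.64 to 8.15 in the middle arrays, 9.2 to 10.57 in the early arrays and 11.3 at 0 h. The 6 phloem genes other than SWEET11, of 26 listed, averaged 8.17 to 8.28 in the late, 7.93 to 8.1 in the middle and 7.21 to 7.63 in the early arrays, and 6.35 at 0 h. The 3 epidermis and stomata genes of 9, the stomatal genes SPCH, MUTE and FAMA, averaged 4.33 to 4.57 late, 4.36 to 4.84 middle and 5.49 to 6.18 early, and 6.38 at 0 h. Of these, MUTE was too dim to be tested, with means of 1.85 late, 1.98 middle and 3.56 early. The 2 procambium genes of 11 averaged 7.68 to 8.19 late, 6.89 to 7.81 middle and 5.9 to 6.47 early, and 5.69 at 0 h. The 1 xylem gene of 19, IRX10, lay at 9.67 to 10.47 late, 8.19 to 9.68 middle and 6.86 to 9 early, and at 7.05 at 0 h. The part of these shifts in the results below was not tested.

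SWEET4 stood at 4.73 at 0 h and at 9.85, 10.08, 9.98 and 9.12 at 6, 12, 18 and 24 h. It then measured 8.55, 8.16, 7.47 and 6.57 at 30, 36, 42 and 48 h, and 6.56, 5.52, 6.05 and 5.86 at 54, 60, 66 and 72 h. The gene was therefore lowest before culture, highest at 12 h, and came down over the following days without returning to its 0 h level in any array.

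SAG29 measured 5.14 at 0 h and 10.24, 10.6, 9.47 and 7.11 at 6, 12, 18 and 24 h. The later values were 7.09, 6.71, 5.8 and 4.92 at 30 to 48 h and 4.81, 5.01, 4.52 and 3.83 at 54 to 72 h. It peaked at the same array as SWEET4, but it was well below its peak by 24 h. After centring, every array from 48 h on lay below that of 0 h, a comparison that crosses the step in array medians. On the values as deposited, SAG29 was at 4.66 at 0 h and at 5.27, 5.1, 5.23, 4.79 and 4.01 at 48 to 72 h. There only the 72 h array lay below that of 0 h.

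SWEET11 was highest at 0 h, with 11.86. It measured 11.35, 11.1, 10.89 and 10.37 at 6 to 24 h, 10.24, 10, 9.36 and 8.91 at 30 to 48 h and 8.49, 8.27, 8.34 and 7.28 at 54 to 72 h. After centring, each array was lower than the one before it, with 1 exception, the 66 h array, which was 0.07 above that of 60 h. The change from 24 to 30 h, across the step in array medians, was -0.13, as was the median step of all genes tested. On the values as deposited SWEET11 rose there, from 10.07 to 10.48.

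**Figure D1:**
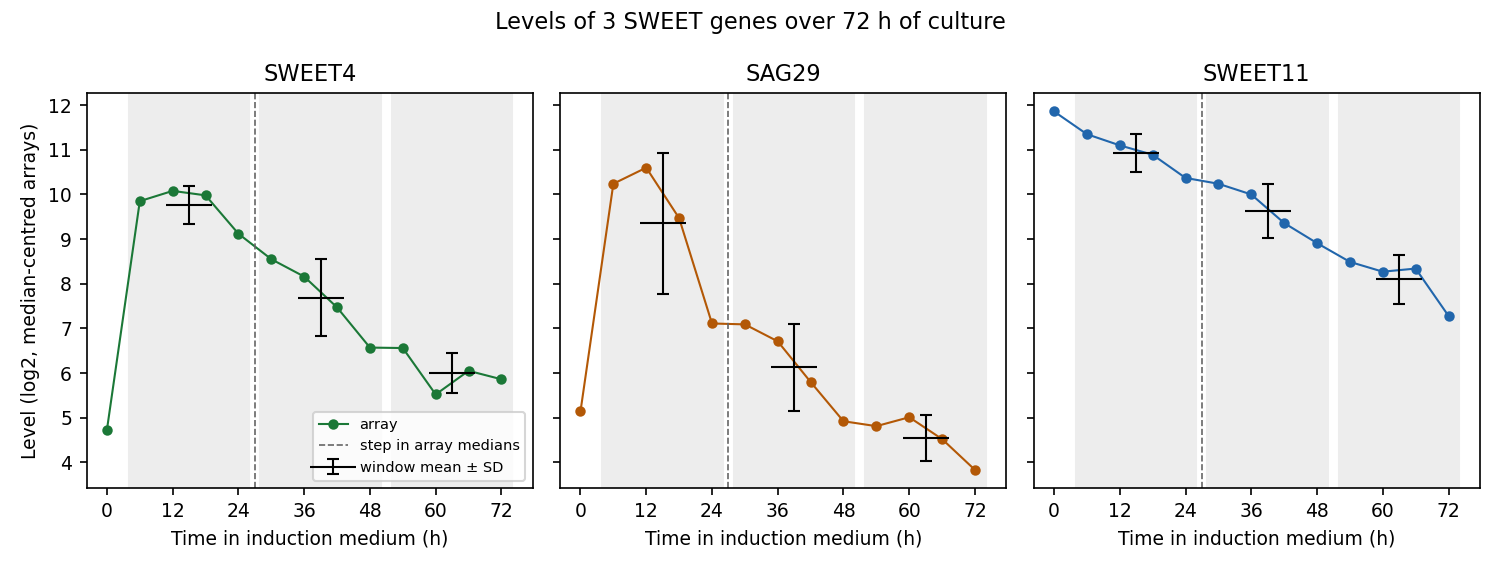
The log2 level of SWEET4, SAG29 and SWEET11 in each of the 13 arrays (points) against hours in induction medium, with the mean ± SD of each window of 4 arrays in black and the step in array medians as a dashed line. SWEET4 and SAG29 peak at 12 h, at 10.08 and 10.6, while SWEET11 runs down from 11.86 at 0 h to 7.28 at 72 h.

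The early window against 0 h asked how the genes answered the first day of culture. SWEET4 averaged 9.76 ± 0.43 in the early window (SD, n = 4 arrays), against 4.73 at 0 h, and rose 32.7-fold (log2 difference 5.03 ± 0.6 SE, adjusted p = 0.000169 in limma). SAG29 averaged 9.35 ± 1.57 in the early window (SD, n = 4), against 5.14 at 0 h, and rose 18.5-fold (4.21 ± 1.07 SE, adjusted p = 0.0146 in limma). SWEET11 averaged 10.93 ± 0.42 in the early window (SD, n = 4), against 11.86 at 0 h, and did not pass the test, with a log2 difference of -0.93 and a 95% interval from -2.05 to 0.2 (adjusted p = 0.213 in limma). So 2 of the 3 genes were called higher, where 6.3% of the 10982 genes tested were. To be called, a gene needed a size of 1 or more on the log2 scale and an adjusted p under 0.05 (Benjamini-Hochberg, over all genes). The lone 0 h array was assumed to vary as arrays do within the windows. When the fit held just the 5 arrays up to 24 h, SAG29 had the same difference but an adjusted p of 0.131 in limma, and its call ended, while SWEET4 kept its call (adjusted p = 0.00799).

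Most of that rise lay between the first pair of arrays. From 0 to 6 h SWEET4 gained 5.13 and SAG29 gained 5.09, the 3rd and 4th largest gains among the 10982 genes, whose median absolute step was 0.31. From 6 to 12 h the gains were 0.22 for SWEET4 and 0.37 for SAG29, beside a median absolute step of 0.22. These steps rest on 1 array at each end and carry no test.

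Later on the first day the steps of SAG29 and SWEET4 parted, with no test of the difference. SAG29 changed by -1.13 from 12 to 18 h and by -2.37 from 18 to 24 h, and this last step was the 4th lowest of all genes tested. SWEET4 changed by -0.1 and -0.85 over the same steps, and SWEET11 by -0.21 and -0.53. All of these arrays lie on the same side of the step in array medians.

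**Figure D2:**
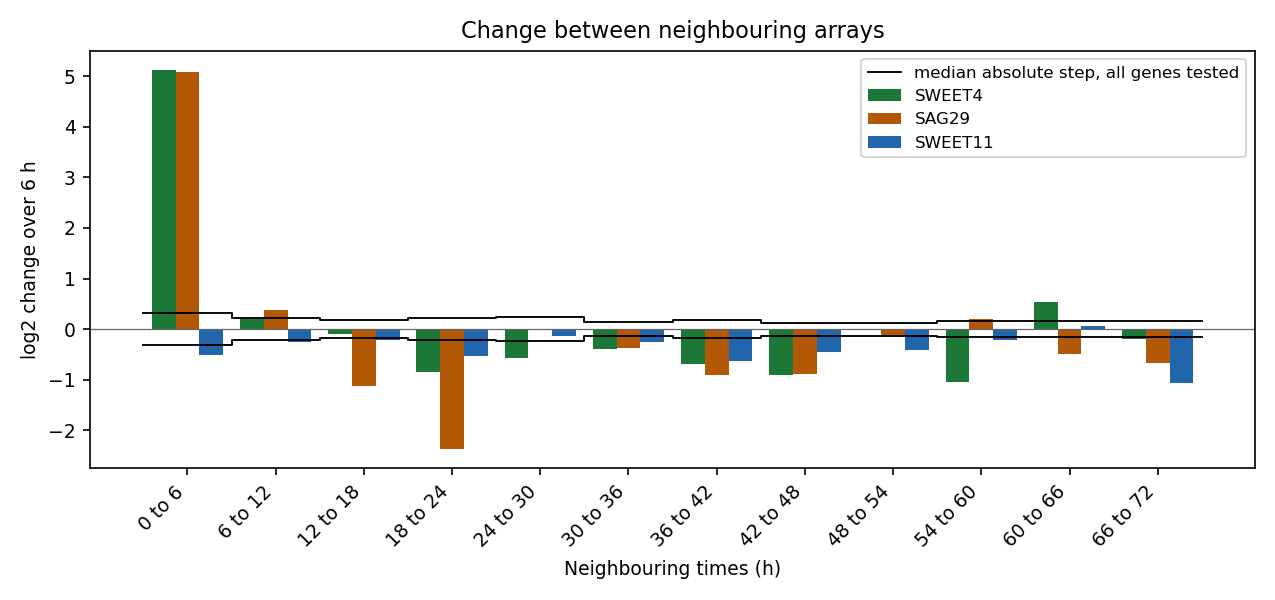
The log2 change of SWEET4, SAG29 and SWEET11 (bars) over each 6 h step, with the median absolute step of all 10982 genes tested as black lines above and below 0. The 2 tallest bars are the gains of 5.13 and 5.09 from 0 to 6 h, and the deepest is the change of -2.37 in SAG29 from 18 to 24 h.

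The second day was followed by setting the middle window against the early one. All 3 genes were lower, and after centring none of their arrays overlapped between the windows. The lowest early array of SAG29, 7.11, stood next to its highest middle array, 7.09. Of all genes tested, 8.3% were called lower, 5.11% higher, and 35.5% had lower arrays without overlap. SAG29 averaged 6.13 ± 0.97 in the middle window and 9.35 ± 1.57 in the early window (SD, n = 4 each), a 9.34-fold fall (log2 difference -3.22 ± 0.68 SE, adjusted p = 0.0018 in limma). SWEET4 averaged 7.69 ± 0.87 in the middle window and 9.76 ± 0.43 in the early window (SD, n = 4 each), a 4.2-fold fall (-2.07 ± 0.38 SE, adjusted p = 0.000816). SWEET11 averaged 9.63 ± 0.61 in the middle window and 10.93 ± 0.42 in the early window (SD, n = 4 each), a 2.47-fold fall (-1.3 ± 0.33 SE, adjusted p = 0.00507). This comparison crosses the step in array medians. On the values as deposited, the 24 h array of SAG29 (6.81) lay below its 30 and 36 h arrays (7.33 and 6.91). That of SWEET11 (10.07) also lay below its 30 and 36 h arrays (10.48 and 10.19). The windows of both genes thus overlapped there. On the values as deposited, without centring, SWEET11 differed by -0.63 and lost its call (adjusted p = 0.0975 in limma), and 1821 genes were called higher and 151 lower, against 561 and 912 after centring.

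For the third day the late window was set against the middle one, and both lie within 1 array set. SWEET4 averaged 6 ± 0.44 in the late window and 7.69 ± 0.87 in the middle window (SD, n = 4 each), and fell 3.22-fold (log2 difference -1.69 ± 0.38 SE, adjusted p = 0.0109 in limma). SWEET11 averaged 8.1 ± 0.55 in the late window and 9.63 ± 0.61 in the middle window (SD, n = 4 each), and fell 2.89-fold (-1.53 ± 0.33 SE, adjusted p = 0.00823). SAG29 averaged 4.54 ± 0.51 in the late window and 6.13 ± 0.97 in the middle window (SD, n = 4 each) and did not pass, with a difference of -1.59 and a 95% interval from -3.06 to -0.12 (adjusted p = 0.146). Thus 2 of 3 genes were called lower, where 1.47% of all genes were lower and 3.91% higher. The arrays of these 2 genes did not overlap between the windows, as those of 8.61% of all genes did not while being lower. The highest late array of SWEET4, 6.56, stood next to its lowest middle array, 6.57. SAG29 passed on the 8 arrays of 30 to 72 h alone (-1.59, adjusted p = 0.0311 in limma), without the 24 h array (-1.59, adjusted p = 0.0273) and with array weights (-1.51, adjusted p = 0.033).

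Within each array set a straight line in time was also fitted, an analysis chosen after the step in medians was seen. Over the 8 arrays of 30 to 72 h, SAG29 fell by 0.43 on the log2 scale per 6 h (SE 0.05, adjusted p = 0.00017 in limma). SWEET4 fell by 0.42 (SE 0.05, adjusted p = 0.000356) and SWEET11 fell by 0.39 (SE 0.03, adjusted p = 3.49e-05). All 3 passed as falling, where 14.1% of all genes did, and the median slope of all genes was 0.01. Over the 4 arrays of 6 to 24 h, the slopes were -1.05 for SAG29, -0.32 for SWEET11 and -0.23 for SWEET4, and 0 of the 3 passed (adjusted p = 0.13, 0.0612 and 0.319 in limma). There 0.665% of all genes passed as falling. Single arrays moved these slopes: that of SAG29 was -0.38 without the 24 h array and -1.75 without the 6 h array, and that of SWEET4 was 0.06 and -0.48 without the same arrays.

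In the late window the genes ended at different places relative to where they began. Against the early window all 3 were lower, as 14.8% of all genes were (8.88% were higher), SAG29 by 28.1-fold, SWEET4 by 13.5-fold and SWEET11 by 7.12-fold (adjusted p = 6.95e-05, 6.71e-06 and 1.69e-05 in limma). Against 0 h, SWEET11 fell 13.5-fold (log2 difference -3.76 ± 0.52 SE, adjusted p = 9.59e-05), the 1 of 3 called lower, where 21.6% of all genes were and 12.5% were higher. SAG29 differed from 0 h by -0.6, with a 95% interval from -2.93 to 1.72 (adjusted p = 0.652 in limma). SWEET4 differed by 1.27, with an interval from -0.03 to 2.58 (adjusted p = 0.0883), although each late array lay above that of 0 h, as was so for 33% of all genes. Both comparisons cross the step in array medians, and SWEET4 was called higher than at 0 h under quantile normalization (1.55, adjusted p = 0.0445), on the values as deposited (2, adjusted p = 0.00882), with centring on probe sets of 1 gene (1.53, adjusted p = 0.0426), with array weights (1.29, adjusted p = 0.0454) and without the 48 h array (1.27, adjusted p = 0.0317).

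**Figure D3:**
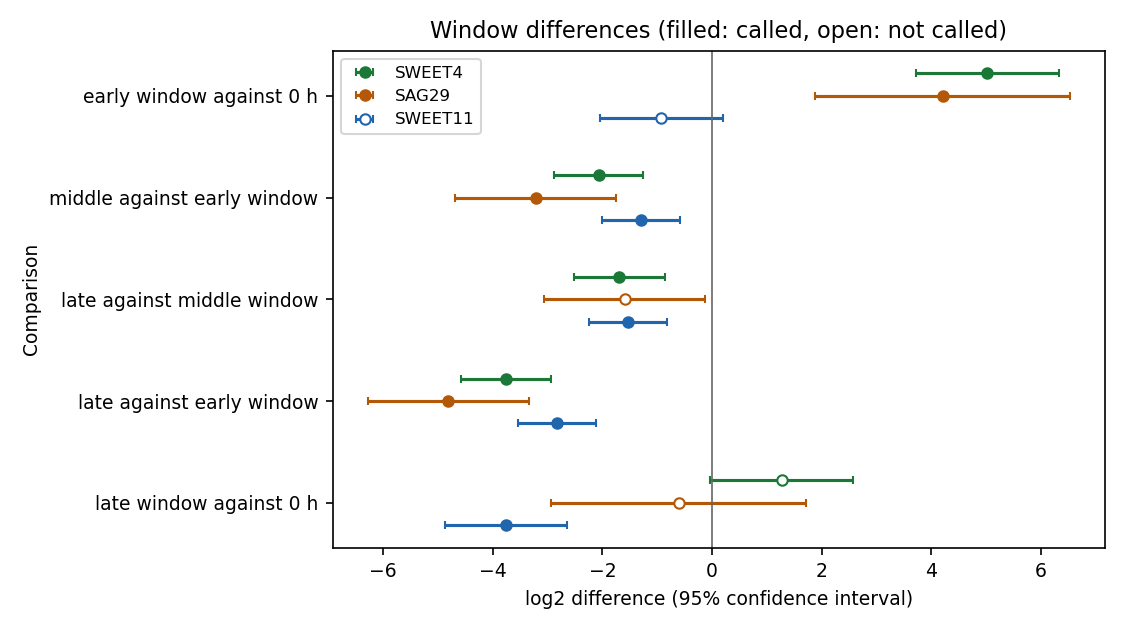
The log2 difference of SWEET4, SAG29 and SWEET11 in 5 window comparisons, with 95% confidence intervals, filled where called and open where not. SWEET4 and SAG29 lie to the right of 0 in the early window against 0 h (5.03 and 4.21), and all 3 genes lie to its left in the comparisons between windows.

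By window, the order of the SWEET4 levels was thus early, middle, late and 0 h, of which the late window and 0 h did not differ past the test. The middle window was higher than 0 h by 2.96 ± 0.6 SE (adjusted p = 0.00165 in limma), a comparison added after the data were seen, in which 10.1% of all genes were called higher. For SAG29 the order was early, middle, 0 h and late. Its middle window differed from 0 h by 0.99, with an interval from -1.34 to 3.31 (adjusted p = 0.459), so that the last 3 could not be told apart with their neighbours. For SWEET11 it was 0 h, early, middle and late, and 0 h and the early window could not be told apart.

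Over the whole course, a smooth curve with 3 degrees of freedom was fitted. SWEET11 had a fitted range of 4.22 (adjusted p = 1.03e-08 in limma), SWEET4 one of 4.15 (adjusted p = 0.00134) and SAG29 one of 4.66 (adjusted p = 0.00283). All 3 were called, as were 46.2% of all genes, which makes the call itself common. With a term for the array sets, 33.4% of all genes were called, and SWEET11 and SWEET4 were called (adjusted p = 3.12e-05 and 0.0188), but SAG29 was not (adjusted p = 0.165).

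Whether the genes changed by different amounts was tested on the log2 difference between 2 genes within each array, which centring does not affect. In the middle against the early window, SWEET4 less SWEET11 differed by -0.77, averaging -1.94 in the middle and -1.17 in the early window, with 4 arrays each that did not overlap (exact two-sided permutation p = 0.0286, the smallest that 4 against 4 arrays allow). After Benjamini-Hochberg adjustment over the 6 tests of 3 pairs, that difference did not pass (adjusted p = 0.171). In the same comparison SWEET11 less SAG29 differed by 1.92 and SWEET4 less SAG29 by 1.15, SAG29 having the lower change in both (exact permutation p = 0.0571 and 0.143, adjusted p = 0.171 and 0.286). In the late against the middle window the 3 differences in change lay between -0.16 and 0.06 (exact permutation p between 0.629 and 0.914, adjusted p = 0.914 for each). With 4 arrays a side and 6 tests, a pair alone at the smallest p could not pass after adjustment. The test could therefore not decide whether SWEET4 and SWEET11 differed in their fall from the early to the middle window. No pair was shown to differ in its fall. The spread within the early window, in which SWEET4 less SAG29 ran from -0.522 to 2.02, leaves room for differences of the size measured.

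The rest of the SWEET family gives the setting. Of 17 family genes, 16 had a probe set of their own, and SWEET12 was not analysed here. The probe sequences were not used, so signal shared between SWEET11 and SWEET12 was not tested. Beside the 3 genes, 5 passed the filter, which lay at a mean of 4.03: SWEET1, SWEET2, SWEET5, SWEET13 and SWEET17. The other 8 (SWEET3, SWEET6, SWEET7, SWEET8, SWEET9, SWEET10, SWEET14 and SWEET16) were too dim to be tested.

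In the early window against 0 h, 0 of these 5 were called higher and 2 were called lower, where 5.49% of all genes were. SWEET2, a vacuolar glucose transporter gene, averaged 6.03 ± 0.42 in the early window (SD, n = 4) against 8.03 at 0 h, a 4.01-fold fall (adjusted p = 0.00449 in limma). SWEET17, a vacuolar fructose transporter gene, averaged 4.9 ± 0.43 in the early window (SD, n = 4) against 6.45 at 0 h, a 2.92-fold fall (adjusted p = 0.00827). Both calls ended on the 5 arrays of 0 to 24 h alone (adjusted p = 0.0549 and 0.102). At 6 h, SWEET2 was at 5.84 and SWEET17 at 5.52.

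SWEET1, a glucose transporter gene of the plasma membrane, averaged 5.62 ± 0.67 in the middle window and 7.84 ± 0.71 in the early window (SD, n = 4 each), and fell 4.65-fold (adjusted p = 0.000461 in limma), the 1 of the 5 called in that comparison. Over the 13 arrays its level had a Pearson r of 0.95 with that of SWEET11, and r was 0.91 between SWEET4 and SAG29, 0.74 between SWEET11 and SAG29 and 0.55 between SWEET4 and SWEET11. These coefficients describe 13 arrays in time order that share one scaling, and 148 tested genes had an r of at least 0.95 with SWEET11. In the late against the middle window 0 of the 5 were called (limma; 1 of them, SWEET1, had an unadjusted p under 0.05, at 0.0498). Against 0 h the late window was lower for 4 of the 5, where 21.6% of all genes were called lower, SWEET1 by 11.9-fold, SWEET2 by 7.94-fold, SWEET17 by 6.14-fold and SWEET5, listed as AtVEX1, by 2.03-fold. The call of SWEET5 ended in 7 of 24 settings. SWEET13 was called in 0 of the comparisons, with window means of 5.01 ± 0.7 late, 5.5 ± 0.44 middle and 4.87 ± 0.55 early (SD, n = 4 each) and 4.85 at 0 h.

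**Figure D4:**
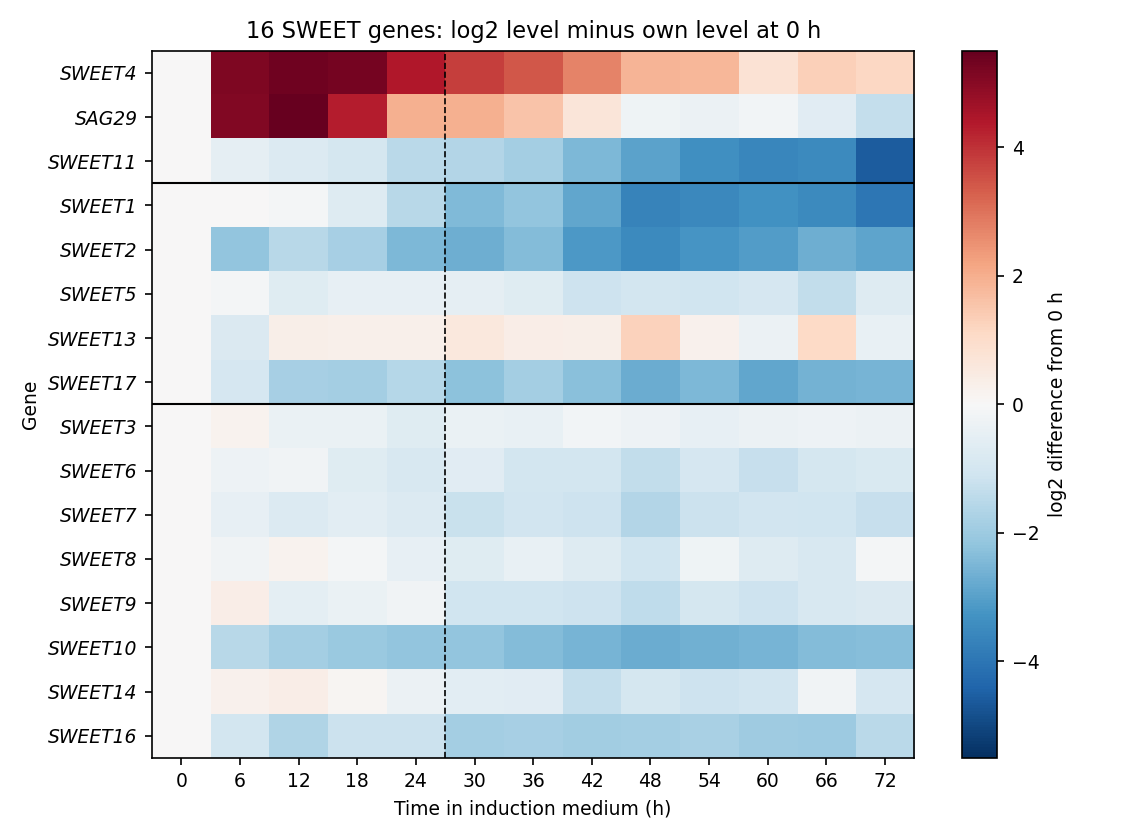
The log2 level of 16 SWEET genes in each array less the same gene's level at 0 h, by hours in induction medium. The top block holds SWEET4, SAG29 and SWEET11, the middle block the 5 other tested genes and the bottom block the 8 genes too dim to be tested, and the dashed line marks the step in array medians. SWEET4 and SAG29 stand out at 6 to 18 h with differences of 4.33 to 5.46.

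SWEET10 was dim on average but is the gene next to SWEET13 in the genome, and both are named after their values were seen. SWEET10 was at 6.04 at 0 h, 4.52 at 6 h and between 3.29 and 4.15 from 12 h on, whereas SWEET13 was at 4.85 at 0 h, 4.04 at 6 h and between 4.43 and 6.14 from 12 h on. Neighbouring family members thus had different courses, with no test of the difference.

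Other genes of sugar handling came from lists written with earlier results of these data known, and few of their genes were measured. In the early window against 0 h, the vacuolar sugar carrier gene TMT2 averaged 8.39 ± 0.27 (SD, n = 4) against 6.46 at 0 h (log2 difference 1.93, adjusted p = 0.000195 in limma). It was the 1 of 2 tested tonoplast and related carriers called higher, where 6.3% of all genes were. CWINV6, which belongs to the cell-wall invertase family that splits sucrose or fructans, averaged 5.23 ± 0.49 (SD, n = 4) against 3.73 at 0 h (1.49, adjusted p = 0.0151). This gene was the 1 of 2 tested invertase genes called higher, beside the same 6.3% of all genes. The CWINV6 call ended with values floored at the 40th percentile, 4.82 (0.47, adjusted p = 0.133), and on the arrays of 0 to 24 h alone (adjusted p = 0.126). APL3, a large subunit of the enzyme that makes ADP-glucose for starch, was the 1 tested starch gene and rose by 4.04 (adjusted p = 0.000264). Of 3 tested proton-coupled hexose carriers, 0 were called in that window, where 6.3% of all genes were higher and 5.49% lower. In the middle against the early window 2 of the 3 were lower, where 8.3% of all genes were, STP3 by 2.01-fold and STP5 by 2.16-fold (adjusted p = 0.00625 and 0.000353), calls that ended in 8 of 25 and 3 of 26 settings.

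Of the 14 genes of the senescence list, 3 were tested. Of the 2 beside SAG29, 0 were called higher in the early window than at 0 h, where 6.3% of all genes were. These 2 are too few to describe the list. Of its 3 tested genes, SAG29 was higher in the early window than at 0 h, SAG101, which encodes a lipase-like protein of immunity and senescence, was lower (log2 difference -1.1, adjusted p = 0.00302 in limma), and WRKY6, a transcription factor gene, was not called. The median of the list was 0.53, and without SAG29 it was -0.28, beside -0.08 for all genes. COR15A and COR47, both protective proteins of cold and drought, were the 2 tested genes of the abscisic acid and osmotic stress list. Of these, 0 were called in the early window against 0 h, where 6.3% of all genes were higher and 5.49% lower. Both were called lower in the middle than in the early window, across the step in array medians, where 8.3% of all genes were. The falls were 9.12-fold and 2.75-fold (adjusted p = 0.000214 and 0.0012 in limma). COR47 lost that call on the values as deposited (-0.78, adjusted p = 0.0173).

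Against 0 h, SWEET11 and most of the other phloem markers differed in opposite directions in the late window. Of the 7 tested, 5 were higher in the late window than at 0 h, where 12.5% of all genes were, and 2 were lower, where 21.6% of all genes were, SWEET11 itself and AT3G12730, named SAPL for its likeness to the phloem regulator APL. The 5 were CLE41 and CLE44, which encode the peptide TDIF, CLE45 and OPS, which act in protophloem, and NHL26, a gene of companion cells, with log2 differences between 1.59 and 4.1 (adjusted p between 5.31e-06 and 0.00233 in limma). These 5 are named after their values were seen. SAPL averaged 6.97 ± 0.32 in the late window (SD, n = 4) against 9.36 at 0 h, a 5.24-fold fall (adjusted p = 0.000128). In the late against the middle window fewer of the markers were called. Of the 7, 1 was called higher, CLE45 (1.8, adjusted p = 0.000136 in limma), where 3.91% of all genes were. The 2 called lower, where 1.47% of all genes were, were SWEET11 and SAPL, SAPL by 2.15-fold (adjusted p = 0.00499). The other 4 were not called. NHL26 differed by 0.85 (adjusted p = 0.00524 in limma) and fell short only of the log2 cutoff of 1. OPS, CLE44 and CLE41 differed by 0.27, -0.11 and -0.37 (adjusted p = 0.579, 0.786 and 0.317). The median of the 7 was -0.11. The SAPL call in that comparison ended without the 36 h array (-0.98) and without the 72 h array (-0.95).

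The 5 genes most like each gene were taken by Pearson r over the 13 arrays among all tested genes. An r of at least 0.95 was reached by 148 genes for SWEET11, 34 for SWEET4 and 54 for SAG29. For SWEET11 they were AT1G49750, SAPL, AT4G29400, AT3G54400 and the carboxypeptidase-like gene scpl26, with r between 0.984 and 0.99. For SWEET4 they were AT4G09500, APL3, AT5G45950, AT3G05640 and AT1G66880, with r between 0.977 and 0.983. APL3 measured 6.19 at 0 h, 10.6, 10.78, 10.24 and 9.31 at 6 to 24 h, 9.31, 8.62, 8.35 and 7.97 at 30 to 48 h and 7.9, 7.5, 7.46 and 7.2 at 54 to 72 h, the same order of windows as SWEET4. Because APL3 was picked by its r with SWEET4, that shared order is no separate result. For SAG29 they were AT1G19970, the carboxypeptidase-like gene scpl35, AT1G78070, AT3G56080 and AT1G66920, with r between 0.973 and 0.979. Without the 0 h array, 0 of the 5 genes stayed among the nearest for SWEET4, 0 for SAG29 and 3 for SWEET11.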

How the data were processed

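The authors' deposited table holds log2 values, the base being read from their range of 0.33 to 14.03. Per the labels' protocols, biotinylated cRNA was made with an Affymetrix one-cycle kit, and the submitters' processing notes name GCOS. How background was corrected and how probes were summarised and normalized is not stated in those sources. The number of arrays limits the precision.

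Of 38408 probe sets, 16722 had 1 annotated gene and 759 several, and 16574 of the 16722 matched the TAIR10.1 annotation. Arrays were centred on their medians, the dimmest 30% of probe sets left out and the brightest probe set of a gene kept. Window means were fitted over the 13 arrays with limma 3.58.1 (R 4.3.3, eBayes with trend, 9 residual degrees of freedom). The p-values of the windows measure the spread between the arrays of a window. That spread holds change between its 4 times as well as array error. Nothing in the labels says that samples came from separate cultures, so the array error may be technical. Named genes were the 3 transporters, other tested family members, the 5 nearest by r, and up to 3 called list members per comparison with the largest difference. The members and the 15 lists (51 of 204 genes measured) were chosen with earlier results of these data known. Of the lists, 0 of 9 sucrose-proton symporters and 0 of 12 sugar signalling genes were measured, and procambium, xylem, sucrose synthesis and stomatal lists held 1 to 3. Genome coordinates and sequences were not used here. Figures used matplotlib 3.10.9 in Python 3.11.15.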

Additional observations from a re-analysis of the deposited data

Results flagged for a closer look

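In each window of 4 arrays, an array was picked out when its gap to the nearest of the others was a large part of the window's range. This happened in 5 of 99 windows of 33 genes, or 5.05%. The cutoff was set to pick out about 5% of sets of 4 independent, normally distributed values. Each window holds 4 different times of a course, so 5% need not be the chance rate here. In none of the windows was it SWEET4, SWEET11 or SAG29. SWEET13 was at 4.04 at 6 h, below its other early arrays of 5.13 to 5.18, and SWEET9, too dim to be tested, was at 2.16 at 48 h, below 2.43 to 2.48. COR15A was at 7.57 at 54 h, above its other late arrays of 6.61 to 6.73. STP8, a hexose carrier gene, was at 4.68 at 6 h, above 4.26 to 4.31, and the vacuolar invertase gene AT1G62660 (VAC-INV1) was at 8.29 at 12 h, below 8.63 to 8.7.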

How the results depend on the processing

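Of 27 results of the 3 genes over windows, course and slopes, 20 kept their direction and their side of the threshold in each alternative run. SAG29 in the early window against 0 h (4.21) lost its call on the arrays of 0 to 24 h alone, SWEET11 for middle against early lost it on the values as deposited (-0.63), and SAG29 lost its smooth course with a term for the array sets (range 3.69). SAG29 in the late against the middle window gained a call with array weights (-1.51), with an early window of 6 to 18 h (-1.59) and on the arrays of 30 to 72 h alone (-1.59), and ranged from -1.99 to -1.27 when single arrays were left out. SWEET4 in the late window against 0 h gained a call under quantile normalization (1.55), as deposited (2), with centring on probe sets of 1 gene (1.53) and with array weights (1.29), and ranged from 1.09 to 1.43 without single arrays. SAG29 in the late window against 0 h turned to 0.12 as deposited. The slope of SWEET4 over 6 to 24 h ranged from -0.48 to 0.06 without single arrays, the 0.06 being without the 24 h array, and that of SAG29 from -1.75 to -0.38. The late against middle difference in change of SWEET11 less SAG29 turned to -0.27 with the floor at the 40th percentile and to -0.06 under quantile normalization, and without single arrays it ranged from -0.06 to 0.22, that of SWEET4 less SWEET11 from -0.38 to 0.06 and that of SWEET4 less SAG29 from -0.29 to 0.21. The cause of these changes was not tested.

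Counts over all genes moved more. As deposited, 1821 were higher and 151 lower for middle against early, 2342 and 595 in the late against the early window (975 and 1624 after centring), and 3029 and 940 in the late window against 0 h (1374 and 2376 after centring). With centring on probe sets of 1 gene, 571 were lower for middle against early. Without the filter, 1079, 1697 and 5131 genes were lower for early against 0 h, middle against early and late against 0 h, and 8893 followed a smooth course, against 603, 912, 2376 and 5076. With the lower 50% left out, 299 and 1306 were lower in the first and the last of these windows and 3245 followed a course. In the early window against 0 h, 905 were lower with windows of 3 arrays, 502 to 916 without single arrays (916 without the 6 h array), and 287 higher and 157 lower on the arrays of 0 to 24 h alone. In the late against the middle window, 95 were lower with the floor at the 40th percentile and 74 to 274 without single arrays (main count 161), those of 30, 36, 48, 66 and 72 h each moving it by over 1.5 times. Of 51 calls of other named genes, 25 held in each alternative and 26 were lost in at least 1, and 0 reversed. By Spearman rho, 1, 1 and 0 of the 5 genes nearest to SWEET4, SWEET11 and SAG29 stayed, and under quantile normalization 4, 4 and 2. No paired analysis was possible because the labels give 1 sample per time and no replicate numbers. No signal over background was given, so which dim genes were above it is not known.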

Other observations

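A sugar carrier gene was higher on the third day. STP8 (AT5G26250), a proton-coupled hexose carrier gene, averaged 5.38 ± 0.27 in the late window and 4.13 ± 0.23 in the middle window (SD, n = 4 each), a log2 difference of 1.25 (adjusted p = 0.000295 in limma). It was the 1 of 3 tested hexose carriers called higher in that comparison, where 3.91% of all genes were. The others, STP3 (-0.95, adjusted p = 0.0299) and STP5 (-0.11, adjusted p = 0.735), lay on the lower side and were not called. AT3G54270 (SPP3B), a sucrose phosphatase gene, averaged 5.4 ± 0.22 in the late window and 4.09 ± 0.19 in the early window (SD, n = 4 each), a difference of 1.31 (adjusted p = 1.66e-05 in limma). Its difference between the late and the middle window, 0.89 (adjusted p = 0.00182), fell short only of the log2 cutoff of 1 and was not called. STP8 and SPP3B are dim. Once low values were raised to the 40th percentile, their called differences of 1.25 and 1.31 fell short of that cutoff, at 0.56 and 0.57. The vacuolar invertase gene AT1G62660 (VAC-INV1) was lower in the late than in the early window by 2.71-fold (adjusted p = 9.89e-05), a call lost on the values as deposited (-0.81).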
